A study of Mus with 6 samples.

Results

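Immediate early genes are switched on within minutes of neuronal firing, without new protein synthesis, when calcium and kinase signals reach transcription factors already bound at their promoters. Their products are transcription factors (the Fos, Jun, Egr and Nr4a families and Npas4), proteins that act at synapses or outside the cell (Arc, Homer1, Nptx2, Vgf), and brakes on the signal itself (the Dusp phosphatases). In the amygdala their induction is widely used to mark neurons that took part in fear learning. Some members also respond to growth factors, shear stress or handling in cells other than neurons, among them Klf2 and Klf4 of the vessel wall. The 33 genes described here were chosen as a list of immediate early and activity-induced genes, and each was found by its exact gene name in a table of 54532 genes.

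Basolateral amygdala of female mice gave 6 RNA-seq libraries, 3 labelled wild type (WT) and 3 labelled CNTNAP4-KO (KO, a knockout of Cntnap4, which encodes a transmembrane protein of the neurexin superfamily). The series title concerns fear memory and Lactobacillus reuteri, and the question the samples address is how expression differs between the genotypes. No bacterial treatment, training or other stimulus is given in the labels of any library, nor are the age, strain or knockout allele. The labels do not say whether the libraries are from separate animals, so p-values measure the spread between these libraries. Values are FPKM (fragments per kilobase of gene, scaled for sequencing depth, a level per gene length), and genes with a mean of at least 1 FPKM over the 6 libraries were tested. All 33 genes passed that filter, among 13087 tested.

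The libraries held 15933029 to 17789798 reads, recovered from the FPKM values and gene lengths. The fewest reads behind any of the 33 genes in a library were 10 (Atf3 in KO2), and 28 genes had 100 reads or more in every library. Cntnap4 was at 2.15 to 3.90 FPKM in WT and 1.08 to 1.28 in KO. All 16 markers of glutamatergic and amygdala projection neurons passed the filter, with Slc17a7, the vesicular glutamate transporter of these cells, picked as the defining marker, at 201 to 364 FPKM. Markers of striatal neurons, a neighbouring tissue, summed to 930 FPKM in WT3 and 411 in KO3, against 84.3 to 229 in the other 4 libraries. Central amygdala markers summed to 483 FPKM in WT1 and 312 in WT2, against 202 to 257 in the other 4 libraries, most of it Sst. Oligodendrocyte markers summed to 361 FPKM in WT1, against 607 to 870 in the rest. The part of these differences in the levels of the 33 genes was not tested. In bulk tissue, fewer cells that express a gene and less RNA of it per cell cannot be told apart.

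The 33 genes differed mostly between libraries of the same genotype. WT2 and KO1 were the 2 highest of the 6 libraries for 19 of 33 genes (57.6%), a pair of libraries singled out after the values were seen. The same pair led for 7.49% of all genes tested. In the plot of levels by library these 19 genes show a dark blue and a dark red point above the rest.

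**Figure D1:**
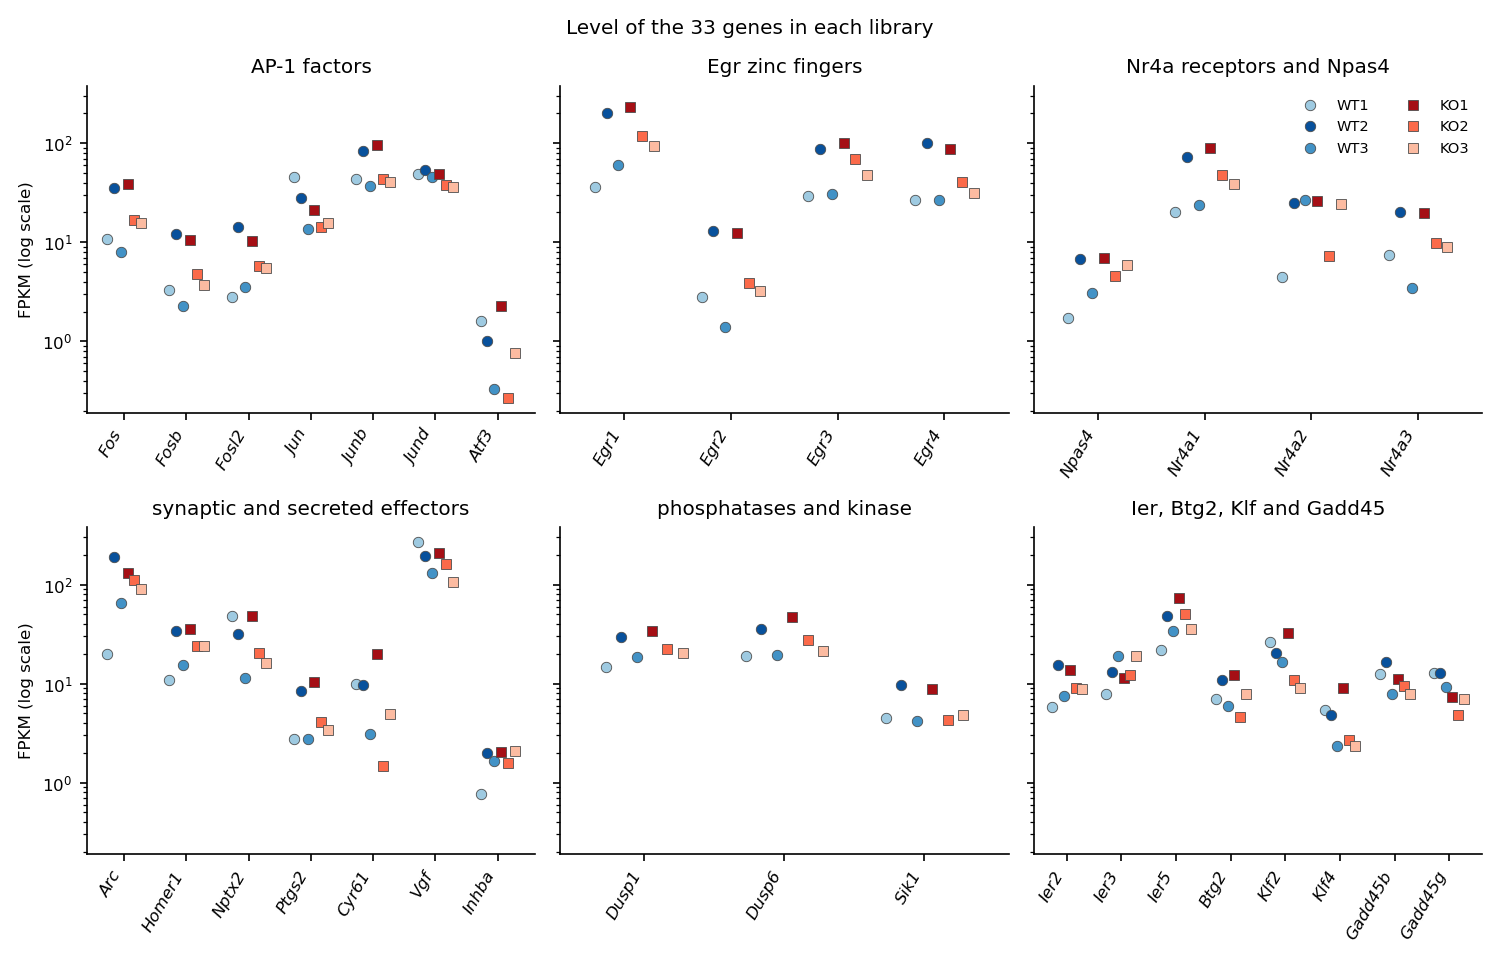
Level of each of the 33 genes in FPKM (vertical axis, log scale) in the 6 libraries, grouped by role; circles are WT, squares are KO, and each point is 1 library. For Fos, Egr2 and Ptgs2, for example, WT2 and KO1 lie above the other 4 libraries.

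Fos is the best known of these genes and pairs with Jun proteins to form the AP-1 transcription factor. The gene (ENSMUSG00000021250) lies on chromosome 12 from 85473890 to 85477273. Its level was 10.9, 35.1 and 8.03 FPKM in WT1, WT2 and WT3, and 39.2, 16.8 and 15.7 in KO1, KO2 and KO3. WT2 and KO1 stood apart from the rest and from their own groups, and the groups overlapped over most of their range. The means were 18.0 ± 14.9 FPKM in WT and 23.9 ± 13.2 in KO (SD, n = 3), and the log2 fold change of KO against WT, on the scale of log2(FPKM + 1), was 0.54 (SE 0.56, 95% interval -0.77 to 1.85, limma adjusted p = 0.657 over all genes tested).

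Fosb, Fosl2 and Junb had the same pair of libraries on top as Fos, with WT2 above KO1 for Fosb and Fosl2 and KO1 above WT2 for Junb. Fosb, whose truncated form accumulates with repeated stimulation, was at 3.33, 12.2 and 2.25 FPKM in WT1 to WT3 and 10.6, 4.82 and 3.69 in KO1 to KO3. Fosl2 was at 2.77, 14.2 and 3.55 across WT1 to WT3 and 10.4, 5.80 and 5.5 across KO1 to KO3. Junb, an AP-1 partner that is itself induced by activity, was at 43.2, 83.4 and 37.0 across WT1 to WT3 and 96.3, 43.8 and 41.0 across KO1 to KO3. In each of these 3 genes WT2 and KO1 were the highest, and the groups overlapped.

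Jun, Jund and Atf3 did not follow that order. Jun was at 45.2, 28.2 and 13.5 FPKM across WT1 to WT3 and 21.1, 14.2 and 15.6 across KO1 to KO3, highest in WT1. Jund, an AP-1 partner with high basal expression, was at 49.4, 54.2 and 45.5 across WT1 to WT3 and 49.1, 38.1 and 36.5 across KO1 to KO3. It varied least of the 33 genes within groups, with an SD of 0.18 on the log2 scale. Atf3, a stress-induced factor, was the lowest gene of the list, between 0.268 and 2.29 FPKM, and was highest in KO1 and WT1.

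All 4 Egr genes, zinc finger factors induced through the MAP kinase pathway, had WT2 and KO1 on top. Egr1 was at 36.5, 202 and 59.97 FPKM in WT1 to WT3 and 232, 118 and 93.2 in KO1 to KO3. KO2 and KO3 lay between the pair on top and the 2 low WT libraries. Egr2 (chromosome 10, 67535475 to 67542188) was at 2.82, 13.0 and 1.39 across WT1 to WT3 and 12.4, 3.85 and 3.21 across KO1 to KO3, a range of 9.31-fold over the 6 libraries. Egr3 was at 29.1, 87.2 and 30.9 across WT1 to WT3 and 100.26, 68.8 and 47.7 across KO1 to KO3. Egr4 was at 26.9, 101 and 27.0 across WT1 to WT3 and 86.6, 40.3 and 31.8 across KO1 to KO3. The log2 fold changes of KO against WT were between 0.19 (Egr4) and 0.83 (Egr1, SE 0.62, adjusted p = 0.543, limma), each smaller than the spread between libraries of a group, and the groups overlapped in all 4 genes.

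Npas4 is a transcription factor induced selectively by calcium entry in neurons. Its level was 1.73, 6.78 and 3.05 FPKM across WT1 to WT3 and 6.95, 4.54 and 5.93 across KO1 to KO3, with WT1 lowest and KO1 and WT2 highest. The orphan nuclear receptor Nr4a1 was at 20.03, 71.9 and 23.6 across WT1 to WT3 and 90.5, 47.8 and 38.7 across KO1 to KO3. Nr4a3 was at 7.46, 20.3 and 3.44 across WT1 to WT3 and 19.9, 9.84 and 9.01 across KO1 to KO3. WT2 and KO1 were the 2 highest libraries for both receptors, with KO1 first for Nr4a1 and WT2 first for Nr4a3.

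Nr4a2, which also has stable expression in particular neuron types, behaved otherwise. It was at 4.41, 24.8 and 26.8 FPKM across WT1 to WT3 and 26.0, 7.34 and 24.3 across KO1 to KO3. WT1 and KO2 were low, and the other 4 libraries lay within 24.3 to 26.8 FPKM. The split crossed the genotypes and did not match the striatal markers, which were high in WT3 and KO3 and not in WT2 or KO1.

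Among the effectors, Arc, a capsid-like protein that drives removal of AMPA receptors from synapses, had the widest range of the list apart from Cyr61. It lies on chromosome 15 from 74669083 to 74672570. Its level was 19.8, 189 and 64.8 FPKM in WT1 to WT3 and 130, 112 and 91.3 in KO1 to KO3. WT2 was 9.51-fold above WT1, and the 3 KO libraries lay inside the WT range. Of all 13087 genes tested, 144 had a larger ratio of highest to lowest library than Arc.

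Homer1, whose short form is induced by activity and loosens the synaptic scaffold of the long forms, was at 10.9, 33.8 and 15.6 FPKM across WT1 to WT3 and 35.5, 24.1 and 23.8 across KO1 to KO3. The table gives 1 value per gene, so the short and long forms are not separated. Ptgs2, the inducible cyclooxygenase, was at 2.78, 8.38 and 2.74 across WT1 to WT3 and 10.4, 4.13 and 3.42 across KO1 to KO3. Both genes had WT2 and KO1 on top.

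The secreted products Nptx2, Vgf, Inhba and Cyr61 had other orders. Nptx2, a pentraxin that gathers AMPA receptors, was at 48.3, 31.5 and 11.4 FPKM across WT1 to WT3 and 48.5, 20.4 and 16.0 across KO1 to KO3. Vgf, a precursor of neuropeptides and the most abundant of the 33 genes in 4 libraries, was at 268, 196 and 130 across WT1 to WT3 and 210, 161 and 106 across KO1 to KO3. WT1 and KO1 were the highest for both. Cyr61, a matricellular protein also called Ccn1, ranged 13.6-fold, from 1.49 in KO2 to 20.1 in KO1. Inhba, which encodes the activin subunit beta A, was between 0.761 in WT1 and 2.08 in KO3.

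The 3 negative regulators also had WT2 and KO1 on top. Dusp1, a phosphatase that turns off MAP kinases, was at 14.6, 29.9 and 18.4 FPKM across WT1 to WT3 and 33.9, 22.3 and 20.5 across KO1 to KO3. Dusp6, specific for the ERK kinases, was at 19.1, 35.3 and 19.5 across WT1 to WT3 and 46.9, 27.3 and 21.2 across KO1 to KO3. Sik1, a kinase that keeps CREB coactivators out of the nucleus, was at 4.50, 9.71 and 4.16 across WT1 to WT3 and 8.92, 4.28 and 4.82 across KO1 to KO3. These 3 genes varied less than Fos or the Egr genes, with SDs within groups of 0.44 to 0.54 on the log2 scale, against 0.90 for Fos and 0.72 to 1.13 for the Egr genes.

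The remaining 8 genes were mixed. Ier2 and Btg2, an antiproliferative gene, had WT2 and KO1 highest, with Ier2 at 5.76, 15.3 and 7.55 FPKM across WT1 to WT3 and 13.8, 9.09 and 8.77 across KO1 to KO3. Ier5 was at 21.9, 48.1 and 33.8 across WT1 to WT3 and 73.3, 50.01 and 35.9 across KO1 to KO3, so that KO2 lay just above WT2. Ier3 was highest in WT3 (19.0) and KO3 (18.8), the libraries with the striatal markers, and at 7.80 to 13.0 in the others. The part of other tissue in these Ier3 values was not tested.

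Klf2 and Klf4, factors induced by shear stress in endothelium, shared the order of Cyr61 and Atf3 at the top, with KO1 first and WT1 next. Klf2 was at 26.4, 20.2 and 16.7 FPKM across WT1 to WT3 and 32.5, 10.8 and 9.13 across KO1 to KO3. Klf4 was at 5.37, 4.85 and 2.37 across WT1 to WT3 and 8.95, 2.69 and 2.37 across KO1 to KO3. All 14 endothelial markers were measured above the filter, and their summed level was 142 FPKM in WT1 and 151 in KO1, against 149 to 222 in the other 4 libraries. Of the 9 meningeal fibroblast markers, 7 were above the filter, and they summed to 841 FPKM in WT1, 505 in WT2 and 405 in KO1, against 211 to 319 in the other 3 libraries, most of it Ptgds. The collagen genes Col1a1 and Col1a2 and the proteoglycan gene Lum, picked after their values were seen, were highest in WT1 and next in KO1. The rest of the tested markers on that list, Dcn, Ptgds, Slc6a13 and Slc13a3, were highest in WT1 and next in WT2. Col1a1 was at 5.67 FPKM in WT1 and 2.75 in KO1, against 0.474 to 1.16 elsewhere. The part of endothelial or meningeal cells in the levels of Klf2, Klf4, Cyr61 and Atf3 was not tested.

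Gadd45g was the single gene of the 33 whose KO and WT values did not overlap. It belongs to a family of stress and DNA demethylation factors and lies on chromosome 13 from 51846678 to 51848468. Its level was 12.9, 12.9 and 9.34 FPKM in WT1 to WT3 and 7.27, 4.82 and 6.98 in KO1 to KO3, with 98 to 283 reads behind each value. The means were 11.7 ± 2.05 in WT and 6.36 ± 1.34 in KO, and the log2 fold change was -0.79 (SE 0.18, 95% interval -1.22 to -0.37). With an adjusted p of 0.302 in limma it did not pass the threshold of 0.05. Its relative Gadd45b was at 12.4, 16.4 and 7.94 across WT1 to WT3 and 11.2, 9.36 and 7.94 across KO1 to KO3, with the groups overlapping.

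**Figure D2:**
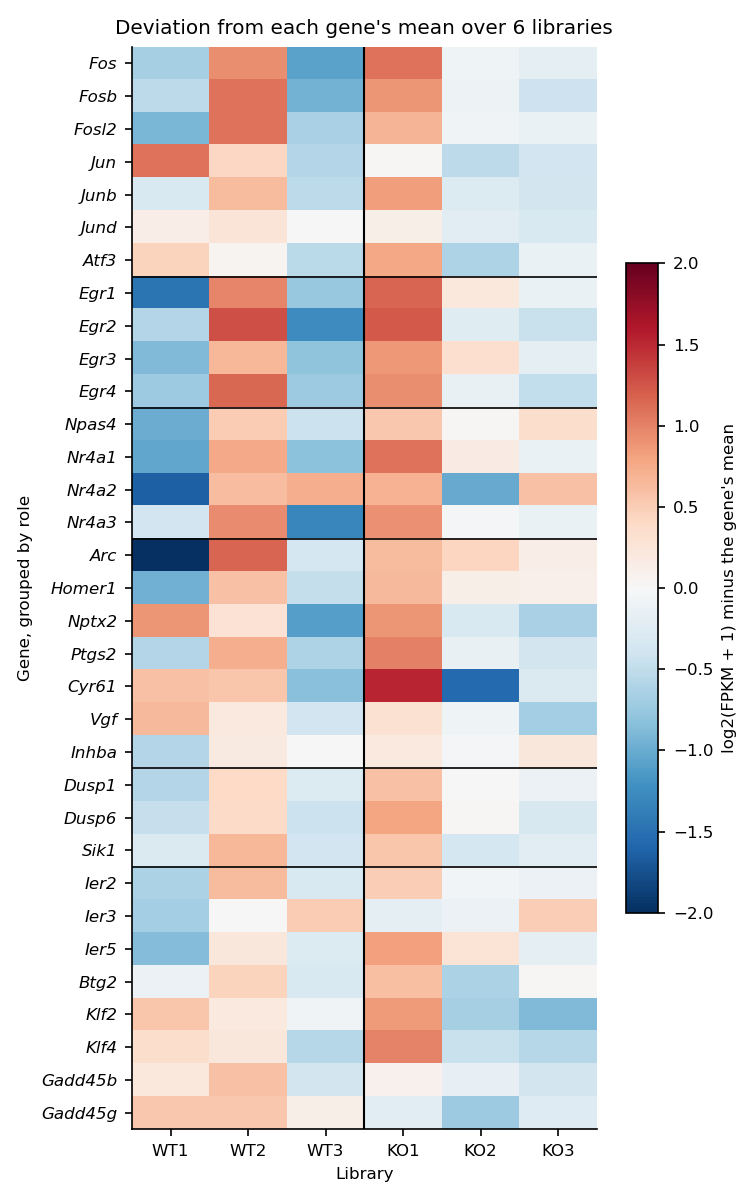
Deviation of each gene (rows, grouped by role) in each library (columns) from the gene's mean over the 6 libraries, in log2(FPKM + 1); red is above the mean and blue below. The WT2 and KO1 columns are above the mean for most rows. Ier3 is below its mean in both (-0.01 and -0.19) and Gadd45g in KO1 (-0.21). In some other rows, such as Jun, Nr4a2, Nptx2 and Klf2, another library lies above WT2 or KO1.

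The plot of deviations shows how widely the order was shared. WT2 was the highest WT library for 23 of 33 genes and KO1 the highest KO library for 31 of 33. The exceptions in KO were Ier3 and Inhba, both highest in KO3. Averaged over the 33 genes, the deviation from each gene's mean was 0.59 in WT2 and 0.68 in KO1 on the log2 scale, against -0.38 in WT1, -0.48 in WT3, -0.21 in KO2 and -0.20 in KO3. Their summed level was 1442 FPKM in WT2 and 1519 in KO1, and 660 to 907 in the other 4 libraries.

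Between WT2 and KO1 there was no common order, since KO1 was above WT2 in 11 of the 19 genes that this pair led. Below them, KO2 and KO3 were both above both WT1 and WT3 in 16 of the 19, the exceptions being Junb, Sik1 and Btg2. Of the 980 genes in the whole table that had this pair on top, 288 (29.4%) had that order below it. The order was counted within genes picked for that pair, and the counts describe it without testing it.

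The margin by which the lower of WT2 and KO1 exceeded the highest of the other 4 libraries was among the widest of all genes. Of the 10 genes tested with the widest margin, 7 were on the list (Egr2, Egr4, Fos, Fosb, Nr4a3, Junb and Ptgs2), and of the 50 widest, 16 were. The margin was 1.46 for Egr2 on the log2 scale, 1.08 for Egr4 and 1.02 for Fos. The widest margin of all and the next after Egr2 belonged to a small nucleolar RNA and a processed pseudogene, Gm24494 and Gm10123. These ranks were computed because the pair had been seen to stand out, and they describe it without testing it.

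Spread within groups was larger for these genes than for most. The SD within groups of log2(FPKM + 1) had a median of 0.64 over the 33 genes, against 0.17 over all genes tested, and each of the 33 was above that 0.17. The median ratio of the highest to the lowest library was 3.56-fold, against 1.51-fold over all genes. Of the library measures, WT2 and KO1 also had the fewest genes above 0, at 22166 and 22330 against 22527 to 23375 in the others, and WT2 had the fewest reads. The part of these in the result was not tested.

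Against this spread, no difference between the genotypes passed the test for any of the 33 genes. KO against WT was fitted across all genes with limma, and 0 of 33 had an adjusted p under 0.05, against 0.00764% of all genes (1 of 13087). The smallest adjusted p on the list was 0.302, for Gadd45g. At an unadjusted p under 0.05 there was 1 of 33, Gadd45g, where 14.3% of all genes were (923 higher and 949 lower in KO, or 1224 and 580 with values rescaled to a common sum per library). With the replicate number as a block there were 2, Gadd45g and Vgf, against 17.8% of all genes, and with voom on recovered reads 2, Gadd45g and Jund, against 14.4%. The KO values were all below the WT values for 1 of 33 genes, against 10.1% of all genes, and all above for 0, against 11.9%.

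**Figure D3:**
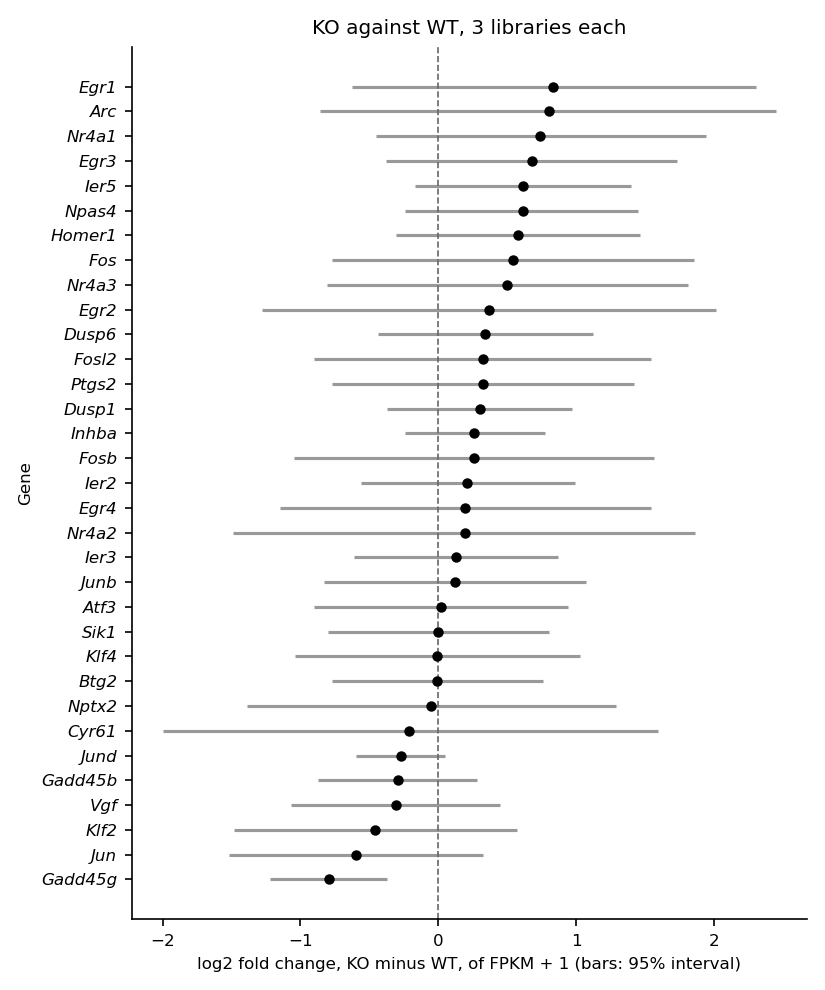
log2 fold change of KO against WT (horizontal axis, on the log2(FPKM + 1) scale) for each of the 33 genes with its 95% interval from the limma fit, 3 libraries per genotype. Except for Gadd45g, every interval spans 0, and those of Arc, Egr1, Egr2, Nr4a2 and Cyr61 are among the widest.

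The direction leaned towards KO without passing. The log2 fold change was positive for 23 of 33 genes, against 51.3% of all genes, and its median was 0.21, against 0.01 over all genes. The largest positive values were those of Egr1 (0.83), Arc (0.80, SE 0.70, 95% interval -0.86 to 2.45), Nr4a1 (0.74, SE 0.51), Egr3 (0.68), Ier5 and Npas4 (0.61 each). For Arc the interval reaches from lower in KO to more than 4-fold higher. Jund was bounded more tightly, at -0.27 (95% interval -0.60 to 0.05). Markers of cell types also differed between the genotypes at an unadjusted p under 0.05, with 0 passing the adjusted threshold in limma. The share over all genes was 14.3%. Of 16 projection neuron markers 8 did, 4 higher in KO (Neurod6, Tbr1, Satb1 and Mef2c) and 4 lower (Lmo3, Nr2f2, Cdh13 and Dcn). Dcn is also on the meningeal fibroblast list, and Cspg4 on both the oligodendrocyte precursor and the mural cell lists. Lower in KO were 6 of 12 microglial markers and 5 of 6 of oligodendrocyte precursors. So were 3 of 7 of mural cells and 3 of 7 of meningeal fibroblasts, and 0 of 14 endothelial markers were in either direction. Also lower were 2 of 8 central amygdala, 2 of 12 GABAergic interneuron, 2 of 10 astrocyte and 2 of 10 oligodendrocyte markers. The same held for 1 of 11 striatal, 1 of 5 hippocampal and 1 of 2 choroid plexus markers. Sst is on both the central amygdala and the interneuron lists. The part of these cells in the fold changes of the 33 genes was not tested.

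Which libraries were compared decided the median and the number of genes at an unadjusted p under 0.05. The plot with 1 library left out shows the median of the 33 log2 fold changes at 0.58 without WT2 and at -0.11 without KO1. Without WT2, 13 of 33 genes had an unadjusted p under 0.05, against 15.1% of all genes, 12 of them higher in KO: Fos, Fosl2, Egr1, Egr3, Arc, Npas4, Nr4a1, Nr4a3, Ier2, Ier5, Dusp1 and Homer1. The lower gene was Gadd45g. Npas4 then had a log2 fold change of 1.02 (SE 0.23) and Arc 1.58 (SE 0.46), and the smallest adjusted p of the 33 was 0.245. WT2 was the highest WT library for 23 of 33 genes, so leaving it out alone lowers their WT mean by construction. KO1 was the highest KO library for 31 of 33, and leaving it out alone lowers their KO mean likewise. The counts describe this dependence without testing it.

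Leaving out a different library gave a different set. Without KO1 there were 3 genes at that threshold, Jund, Klf2 and Gadd45g, all lower, against 9.83% of all genes. Without WT3 there were 3, Jun, Gadd45b and Gadd45g, all lower, against 18.6%, and the median was -0.03. There were 2 without KO3 (Ier5 and Gadd45g), against 11.8%, and 1 without WT1 or without KO2 (Gadd45g), against 9.45% and 6.74%. Gadd45g was at an unadjusted p under 0.05 in each of these fits, with log2 fold changes of -0.93 to -0.63. The number of genes with a positive log2 fold change moved as well. It was 15 of 32 without KO1, 16 of 33 without WT3 and 18 of 32 without WT1. It was 23 of 33 without KO3 and 27 of 33 without WT2 or without KO2. With both WT2 and KO1 left out, chosen for their high values and so given with no test, the median was 0.35 and 22 genes had a positive log2 fold change.

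**Figure D4:**
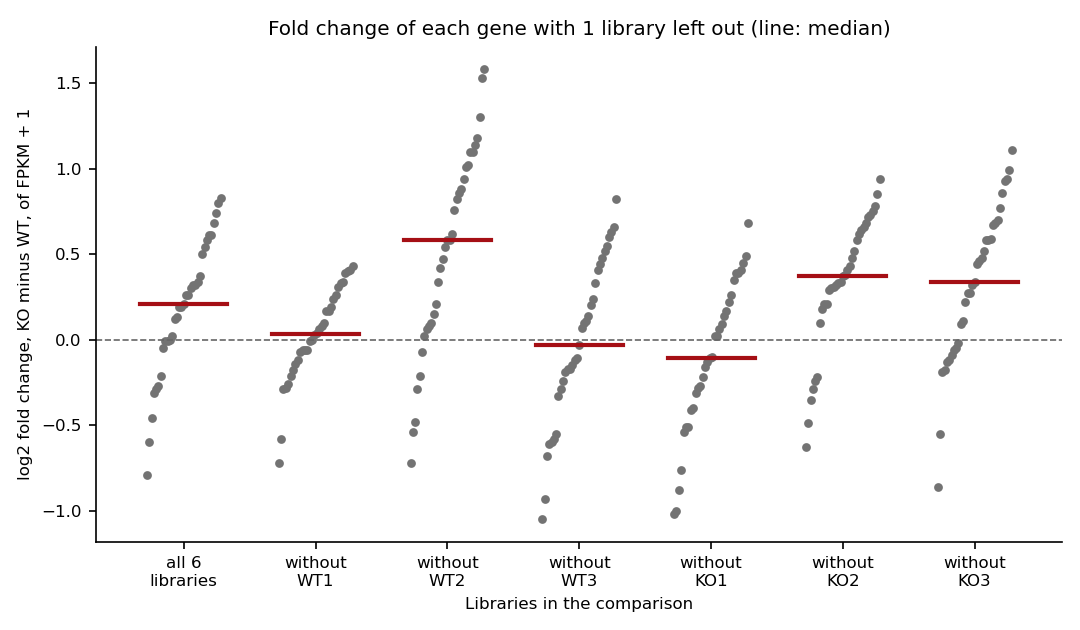
log2 fold changes of KO against WT (vertical axis, on the log2(FPKM + 1) scale) for the genes of the list that passed the filter (grey points, sorted within a column) with all 6 libraries and with each library left out; red lines are medians. The median lies between -0.11 without KO1 and 0.58 without WT2.

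Other genes induced by activity often had the same pair of libraries on top. A further 44 such genes were listed from general knowledge, of which 43 were in the table and 42 were tested. The list was drawn up with earlier results of these data known, so it is no independent check. WT2 and KO1 were the 2 highest libraries for 24 of 42 (57.1%), against 7.49% of all genes tested. The excursions were smaller: the mean deviation was 0.25 in WT2 and 0.30 in KO1, between -0.24 and -0.01 elsewhere. The median SD within groups was 0.32. Pcsk1, a convertase of neuropeptide precursors, was at 6.53, 18.7 and 4.97 FPKM across WT1 to WT3 and 15.7, 13.3 and 9.67 across KO1 to KO3. Per1, a clock gene that is also induced through CREB, was at 17.2, 37.5 and 17.1 across WT1 to WT3 and 42.3, 26.0 and 19.8 across KO1 to KO3. Bdnf, the neurotrophin, differed less, at 7.15, 7.41 and 3.04 across WT1 to WT3 and 8.0, 4.77 and 4.11 across KO1 to KO3. These 3 were picked after their values were seen.

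No gene of that second list passed between genotypes (0 of 42 in limma). At an unadjusted p under 0.05, as for 14.3% of all genes, there was 1, Fbxo33, a substrate receptor of a ubiquitin ligase, higher in KO. It was at 11.3, 17.9 and 14.3 FPKM across WT1 to WT3 and 21.8, 18.9 and 20.3 across KO1 to KO3 with no overlap (log2 fold change 0.48, SE 0.16, adjusted p = 0.303). The next by p were Siah2, at 6.41 ± 0.56 in WT and 7.66 ± 0.56 in KO, and Mbnl2, at 20.8 ± 3.35 and 25.3 ± 0.90. The median log2 fold change of the list was 0.16, against 0.01 over all genes. It was positive for 33 of 42 genes, against 51.3% of all genes.

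The kinases and transcription factors that carry the signal to these promoters varied less between libraries, with a median SD within groups of 0.15. Of 49 listed and tested, WT2 and KO1 led for 8 (16.3%), against 7.49% of all genes tested. The mean deviation was 0.02 in WT2 and 0.15 in KO1. Here 0 of 49 passed between genotypes and 12 had an unadjusted p under 0.05, 9 higher and 3 lower in KO, against 14.3% of all genes. Mapk3, which encodes the kinase ERK1, was at 144, 114 and 112 FPKM across WT1 to WT3 and 88.6, 68.0 and 78.2 across KO1 to KO3 with no overlap (log2 fold change -0.64, SE 0.15, adjusted p = 0.302). Mapk8, which encodes the kinase JNK1, was at 8.90 ± 0.61 in WT and 11.5 ± 0.47 in KO (SD, n = 3). Srf, the serum response factor that binds many of these promoters, was at 17.5 to 25.6 FPKM in all 6 libraries, and Creb1 at 3.88 to 5.48, both picked for their known role.

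**Figure D5:**
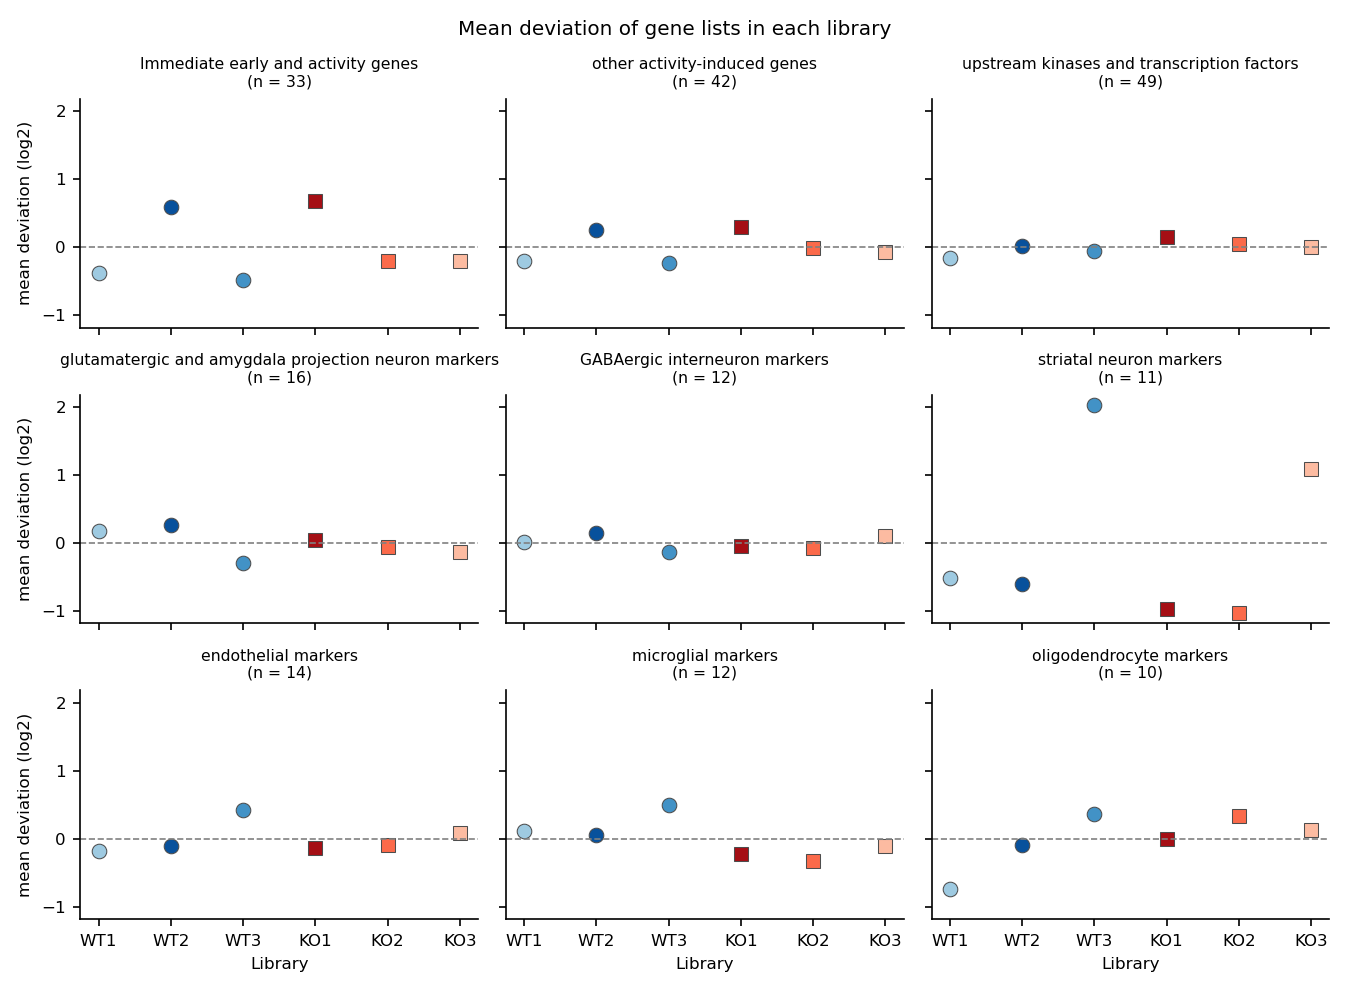
Mean deviation of 9 gene lists in each library (vertical axis, log2(FPKM + 1) minus each gene's mean over the 6 libraries, averaged over the n tested genes of the list); circles are WT and squares are KO. WT2 and KO1 stand out for the 33 genes and the other activity-induced genes, and WT3 and KO3 for striatal markers.

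Markers of cell types had WT2 and KO1 as the highest pair for at most 2 genes of a list, where 7.49% of all genes tested did. The lists were short, so these counts do not set the markers apart from that share. As the plot of lists shows, projection neuron markers had mean deviations of 0.27 in WT2, 0.17 in WT1 and 0.05 in KO1, and 0 of 16 had WT2 and KO1 as the highest pair. For GABAergic interneuron markers 2 of 12 did, and their mean deviation was 0.14 in WT2 and -0.05 in KO1. Among endothelial markers 1 of 14 did, and for microglial, astrocyte, oligodendrocyte, oligodendrocyte precursor, mural, meningeal, choroid plexus, hippocampal and striatal markers 0 did. For central amygdala markers 1 of 8 did. Summed levels of the microglial markers were 198 FPKM in WT2 and 153 in KO1, inside the 140 to 270 of the other 4 libraries. By summed level, however, the projection neuron markers did have WT2 and KO1 highest. They summed to 965 FPKM in WT2 and 1078 in KO1, against 829 to 959 in the other 4 libraries. The part of projection neurons in the levels of the immediate early genes was not tested.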

How the data were processed

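The authors deposited 1 table of FPKM for 54532 Ensembl genes in 6 libraries, with gene name, position and length per the file headers. A Qiagen kit was used for RNA and a SMARTER kit for the mRNA libraries, per the labels' protocols. The submitters' processing notes name GRCm38 and mm10 as builds; positions are those of the table. For the aligner, counter, annotation version and strand setting: not given in the sources used here. Without strand, Junb and Prdx2, which overlap on opposite strands, may share reads. So may Inhba, at 0.761 to 2.08 FPKM, and the processed pseudogene B230303A05Rik on the opposite strand, at 1.05 to 2.07 FPKM.

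Reads were recovered by multiplying FPKM by gene length: each library then showed a constant step, of which 100% of values above 0 were whole multiples (tolerance 0.01 reads). Genes with a mean of at least 1 FPKM (13087) were fitted as log2(FPKM + 1) with limma 3.58.1 in R 4.3.3 (KO against WT, a trended empirical Bayes variance, two-sided tests, Benjamini-Hochberg over all genes, threshold 0.05), tested on simulated data first. The smallest p of an exact permutation test on 3 and 3 libraries is 0.100. Deviations from the group means of same-numbered libraries correlated at 0.175, 0.145 and 0.330 across genes. The numbers were therefore treated as pairing them in an alternative fit with a replicate block, although the labels name nothing that they share and WT2 with KO1 correlated at 0.283. A 95% interval uses limma's moderated SE.

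Named were the 33 members, Cntnap4 and, of other lists, the 3 of smallest p (1 gene is not reported here); genes outside this are said to have been picked or are counted among a list's called genes, the widest margins or the genes shown by a marker count. The members and lists were chosen with earlier results of these data known. Alternatives were another pseudocount (0.1), filters (none or 0.5 FPKM), scalings, no variance trend, the block, voom on recovered reads and leaving out each library. Leaving out WT2 with KO1, and the scalings of the library order, were chosen after seeing the data.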

Additional observations from a re-analysis of the deposited data

How the results depend on the processing

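Of the genes tested in each of 14 alternatives, 0 of the list passed the threshold; without WT1 and without KO1 32 of 33 were tested, since Atf3 fell below the filter. The count over all genes, 1 in the fit reported, was 0 with no filter, with the filter at 0.5 FPKM, with quantile normalization, with no variance trend and with the replicate block, and 0 to 9 with 1 library left out (9 without WT3). The number of the 33 genes at an unadjusted p under 0.05 was 2 with the replicate block and 2 with voom, and 1 to 13 with 1 library left out; the block changed no other call on the list. The median log2 fold change of the 33 genes was 0.21 to 0.26 under the alternatives that kept 6 libraries and -0.11 to 0.58 with 1 left out. WT2 and KO1 led for 19 to 20 of 33 genes under other scalings, against 4.86% to 6.79% of all genes. With 6 libraries 28 genes kept their sign in every alternative. Values rescaled to a common sum turned Btg2 (0.04), Klf4 (0.03) and Nptx2 (0.01), pseudocount 0.1 turned Atf3 (-0.04), quantile normalization turned Sik1 (-0.01), and voom turned Atf3 (-0.10) and Sik1 (-0.01). With 1 library left out 17 genes changed sign, and their log2 fold changes ranged as follows: Fosb -0.15 to 0.86, Fosl2 -0.06 to 0.94, Junb -0.27 to 0.47, Atf3 -0.24 to 0.33, Egr2 -0.17 to 1.10, Egr4 -0.22 to 0.82, Nr4a2 -0.58 to 0.73, Nr4a3 -0.03 to 1.10, Arc -0.01 to 1.58, Ptgs2 -0.10 to 0.76, Cyr61 -1.02 to 0.52, Nptx2 -0.61 to 0.39, Sik1 -0.28 to 0.34, Ier2 -0.06 to 0.58, Ier3 -0.18 to 0.41, Btg2 -0.31 to 0.31 and Klf4 -0.51 to 0.27. Beyond the libraries left out, the cause was not tested. Reads limit Atf3, with 10 to 81 per library.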
